A study of Mus musculus with 19 samples.

Results

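The glycolysis and hypoxia genes are 34 of the 34807 genes in the count table, taken as a list of symbols matched to Ensembl identifiers. They comprise 2 subunits of the hypoxia-inducible factors (HIF), 4 genes of glucose uptake and phosphorylation, 13 glycolytic enzymes, 4 genes of pyruvate and lactate handling and 11 other genes that low oxygen is known to induce. All 34 passed the filter of at least 5 counts in at least 1 library. The carbonic anhydrases listed as Ca9 and Ca12 are Car9 and Car12 in the mouse annotation.

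The study compared cutaneous squamous cell carcinomas arising from different basal epidermal populations of the mouse. Bulk poly(A) RNA was sequenced from 15 tumours and 4 samples of wild type (WT) normal skin, with 1 library per sample, all from female mice. The tumours carried BRAFV600E, an activated form of the kinase BRAF, switched on through CreRT2. This Cre recombinase acts only in the presence of tamoxifen or 4-hydroxytamoxifen. Per the labels the mice were 7 to 20 weeks old, the same range for every group. An age per group is not given, and the study reported later onset of Ivl tumours. In 6 tumours Cre was driven by the Ivl promoter (Ivl:BRAFV600E), which is active in committed progenitors and suprabasal cells. In 5 it was driven by the K5 promoter (K5:BRAFV600E) and in 4 by the K14 promoter (K14:BRAFV600E), both active in basal keratinocytes. By the study's methods, Ivl mice received tamoxifen and K5 and K14 mice 4-hydroxytamoxifen, unless stated otherwise there. Because Cre marks a promoter's history of activity, a genotype names the population in which the oncogene was induced and not the cells present in the tumour. The labels do not say whether tumours of a genotype came from separate mice, nor whether the skin donors received tamoxifen, so p-values measure the spread between these samples. K5 and K14 tumours were taken as 1 group, as the study did (K5/K14, n = 9).

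Glycolysis splits glucose into pyruvate in the cytosol and yields energy without oxygen, provided that pyruvate is reduced to lactate and exported. When oxygen falls, the prolyl hydroxylases that mark HIF-1α and HIF-2α for destruction slow down, and the stabilised proteins bind hypoxia response elements and raise transcription of glucose transporters, most glycolytic enzymes, lactate export and vessel growth factors. Squamous carcinomas commonly hold poorly perfused regions, and proliferating keratinocytes also use glycolysis when oxygen is present. Since HIF-α is mainly controlled as a protein, the RNA of its targets is often measured in its place.

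The core of the hypoxia response element, ACGTG or GCGTG, was searched on both strands in the promoters of the list, from 250 bases before to 50 after the transcription start, because these genes are a textbook target set. RefSeq (GRCm38.p6) gave 44 promoters for 31 of the 34 members. The core was present in 34 of the 44 promoters (77.3%) and in 14380 of all 32851 promoters of the table (43.8%). ACGTG alone, on either strand, was in 24 of the 44 member promoters (54.5%) and in 19.6% of all promoters. The E-box CACGTG, which contains ACGTG on both strands and is also bound by MYC and related factors, was in 5 of the 44 (11.4%) and in 7.15% of all. All 34 promoters with a core also held one outside a CACGTG. These shares describe letters, and no binding was measured here.

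The stretches below belong to members that the results turn on, and were chosen because they had the largest rise (Egln3), open and close the pathway (Slc2a1, Ldha), held a pair of cores (Pgk1), fell into a low and a high set among tumours (Car9) or fell (Pfkm). Each is read 5′ to 3′ on the gene's own strand, and capitals mark the core as read on that strand or its reverse complement (CACGT or CACGC), or the joined letters where both overlap in a CACGTG.
Slc2a1, chr4:119108495-119108720, plus strand: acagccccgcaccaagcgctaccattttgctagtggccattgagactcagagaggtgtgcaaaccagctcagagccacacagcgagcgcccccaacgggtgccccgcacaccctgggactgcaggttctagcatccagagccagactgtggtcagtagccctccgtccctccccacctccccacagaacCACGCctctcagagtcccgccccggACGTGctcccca
Ldha, chr7:46845554-46845803, plus strand: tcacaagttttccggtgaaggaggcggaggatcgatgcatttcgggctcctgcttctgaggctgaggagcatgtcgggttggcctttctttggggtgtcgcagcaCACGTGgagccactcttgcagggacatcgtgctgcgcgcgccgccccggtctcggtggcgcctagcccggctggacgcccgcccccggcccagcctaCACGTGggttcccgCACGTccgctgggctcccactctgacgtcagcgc
Pgk1, chrX:106186850-106187099, plus strand: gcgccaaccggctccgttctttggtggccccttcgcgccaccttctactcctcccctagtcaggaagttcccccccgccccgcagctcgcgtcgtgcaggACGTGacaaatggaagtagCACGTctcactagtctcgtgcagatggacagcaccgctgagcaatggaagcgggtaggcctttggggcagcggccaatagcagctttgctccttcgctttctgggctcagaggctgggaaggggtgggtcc
Egln3, chr12:54203875-54204124, minus strand: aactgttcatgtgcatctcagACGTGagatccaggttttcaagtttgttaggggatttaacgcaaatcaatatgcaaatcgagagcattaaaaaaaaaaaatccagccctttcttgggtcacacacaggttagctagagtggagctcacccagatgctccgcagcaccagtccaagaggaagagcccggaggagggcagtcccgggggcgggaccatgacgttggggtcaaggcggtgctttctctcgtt
Car9, chr4:43506996-43507025, plus strand: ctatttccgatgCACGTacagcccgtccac
Pfkm, chr15:98092339-98092588, plus strand: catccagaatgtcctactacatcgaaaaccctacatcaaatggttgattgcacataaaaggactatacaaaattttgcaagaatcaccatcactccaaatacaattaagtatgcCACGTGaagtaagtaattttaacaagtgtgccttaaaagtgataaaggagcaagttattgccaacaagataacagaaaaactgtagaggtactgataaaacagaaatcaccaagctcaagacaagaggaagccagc
All 30 bases of the Car9 stretch and 10 bases of the Slc2a1 stretch lie in annotated exons, since transcripts of these genes also start further upstream. The core was found in the stretches of genes that rose and in that of Pfkm, which fell. In the Pfkm stretch shown it lay only within a CACGTG, while each of the other stretches held one outside a CACGTG.

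Library totals ran from 45715309 to 72609771 counts. Sequencing took place at different times in batches of 4 and 15 libraries, for which the authors had adjusted the table. The labels do not assign libraries to these batches, so the set of 4 described next was found from the values. CPM are counts relative to library size, as edgeR's cpm function gives them with TMM factors, except in this check. Here CPM were taken from the library totals alone. Of the 13954 genes above a mean of 2 such CPM, 96.6% had the same mean, within 0.1 log2, in 1 set of 4 tumours (Ivl 1, 2 and 3 and K5 1) as in the other 15 libraries. The median over all 3876 sets of 4 was 29.5%, and the next highest set had 64.1%. All 34 members lay within that window. The set holds no skin library while the other 15 hold 4, so the levels of these 4 tumours are tied to a mean that includes skin. For this reason the comparisons are shown with all 19 libraries and again with the 15 outside this set, which are 3 Ivl, 4 K5, 4 K14 and 4 skin libraries. Tissue markers also differed between groups. The summed level of 10 keratinocyte markers, all detected, was 9631 to 16093 CPM in skin (the TMM factors were 1.427 to 1.659 in skin and 0.8063 to 1.149 in tumours), 48204 to 116136 in Ivl and 65135 to 104111 in K5/K14 tumours. The sum of 20 skeletal muscle markers, none at 0 throughout a group, was 4406 to 17399 CPM in skin, 15.3 to 8937 in Ivl and 16.7 to 929 in K5/K14 tumours. The sum of 10 neutrophil markers was 12.3 to 40.6 CPM in skin, where Ly6g was at 0, 107 to 6606 in Ivl and 1594 to 6355 in K5/K14 tumours. The part of these differences in the results below was not tested, and fewer cells of a type and less RNA per cell cannot be told apart in bulk RNA.

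Most of the pathway was higher in both kinds of tumour than in skin. In Ivl tumours 23 of the 34 members were higher and 2 lower (edgeR, two-sided, adjusted p under 0.05), where 20.4% of all 32031 genes tested were higher and 15.5% lower. The median log2 fold change was 1.27 for the members and -0.46 for all genes tested. In K5/K14 tumours 29 members were higher and 1 lower, against 23.2% and 38.9% of all genes, with medians of 1.95 and -0.60. Both comparisons used the same 4 skin libraries. Over the 15 libraries, 23 members were higher and 2 lower in Ivl tumours (22.2% and 32.7% of 31971 genes), and 28 were higher and 2 lower in K5/K14 tumours (23.9% and 42.3%). Without a scaling factor beyond the library total, the median of all genes moved to -1.13 and -1.40 and that of the members to 0.58 and 1.13. The counts were then 17 higher and 6 lower in Ivl tumours, where 8.95% of all genes were higher and 48.3% lower. In K5/K14 tumours they were 26 higher and 4 lower, against 10.1% and 64.5% of all genes.

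The share of all counts that fell on the 34 members does not depend on any scaling. It was 0.616% ± 0.0953 (SD, n = 4) in skin, 1.03% ± 0.169 (SD, n = 6) in Ivl tumours and 1.31% ± 0.121 (SD, n = 9) in K5/K14 tumours. Its range was 0.509% to 0.733% in skin, and the lowest tumour value was 0.765%, so no tumour fell within the skin range. The glycolytic enzymes held most of it, with 0.413% ± 0.079 (SD, n = 4) in skin and 0.841% ± 0.0683 (SD, n = 9) in K5/K14 tumours.

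**Figure D1:**
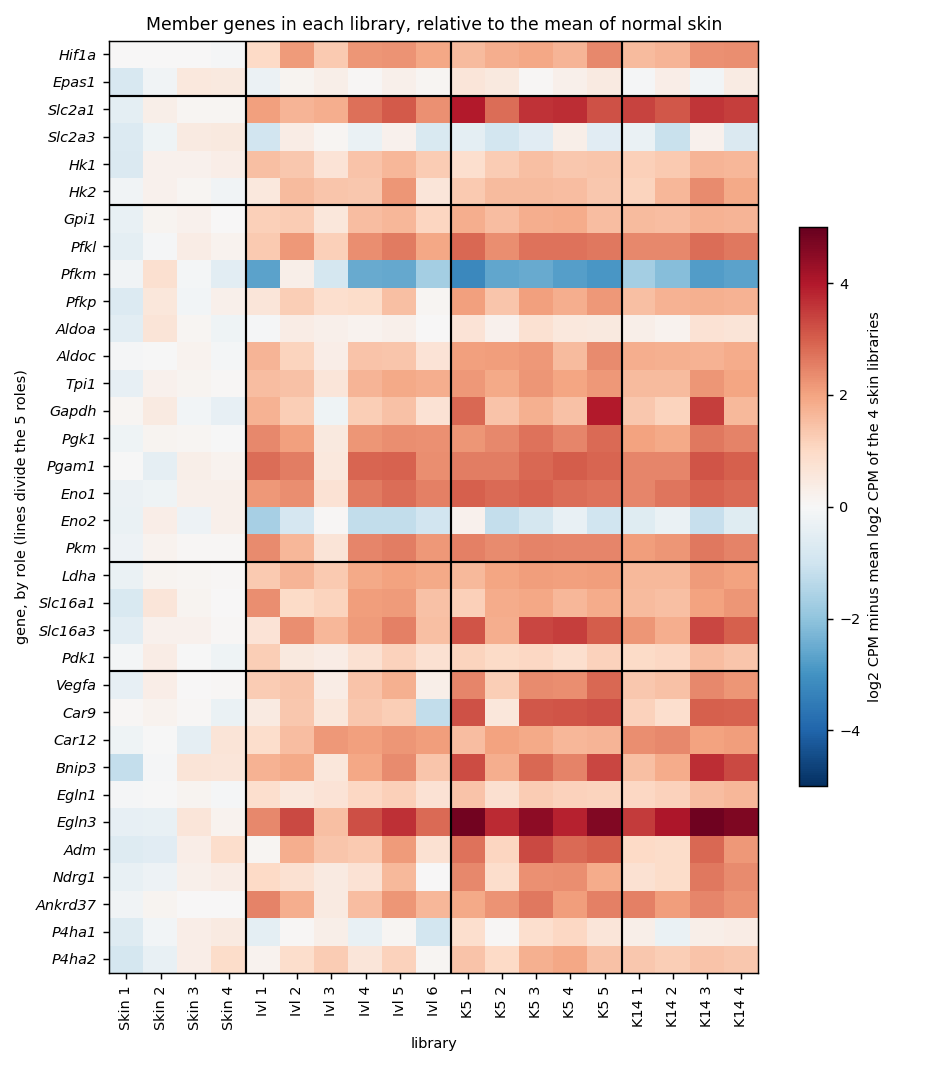
Heat map of the 34 members (rows, grouped by role) in the 19 libraries (columns, grouped by genotype), coloured by log2 CPM minus the mean log2 CPM of the 4 skin libraries. Most enzyme and hypoxia rows are red in every tumour, Pfkm is blue in most, and Ivl 3 is paler than the other Ivl tumours for the enzymes from Tpi1 to Pkm.

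**Figure D2:**
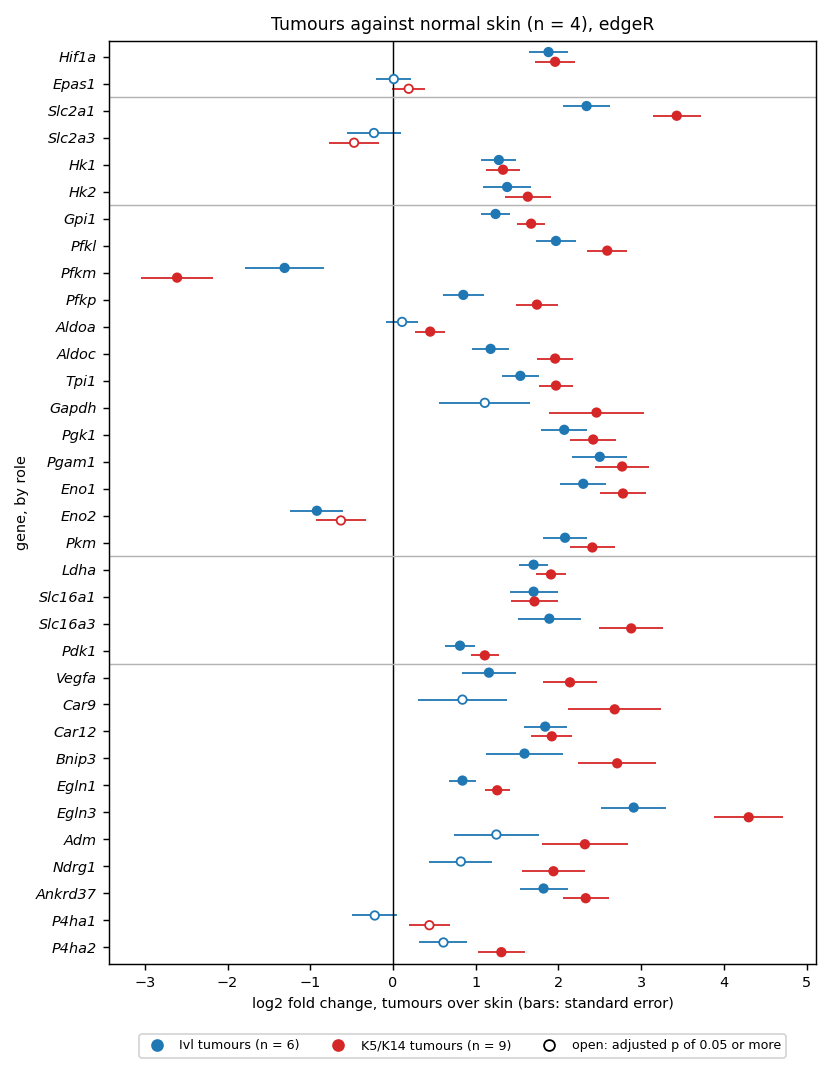
Log2 fold change of each member against normal skin (x axis) with its standard error as a bar, for Ivl tumours (blue) and K5/K14 tumours (red), with filled points where the edgeR adjusted p was under 0.05. Egln3 lies farthest right at 2.91 and 4.30, and Pfkm farthest left at -1.31 and -2.61.

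The HIF subunits differed from each other. Hif1a, which encodes the oxygen-regulated HIF-1α (chr12:73901375-73947530, GRCm38), measured 111, 111, 113 and 107 CPM in the 4 skin libraries. It ranged from 223 to 522 with a median of 455 CPM in Ivl tumours and from 329 to 582 with a median of 390 CPM in K5/K14 tumours. Every tumour was above every skin library. The log2 fold change was 1.88 ± 0.24 (SE) for Ivl over skin (edgeR adjusted p = 2.06e-05) and 1.96 ± 0.24 for K5/K14 over skin (2.90e-06).

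Epas1 encodes HIF-2α, which in many tissues is prominent in endothelium. It measured 62.2, 97.2, 156 and 153 CPM in skin, 88.5 to 135 (median 120) in Ivl and 99.2 to 166 (median 137) in K5/K14 tumours. The groups overlapped, and its log2 fold changes of 0.01 ± 0.21 and 0.19 ± 0.20 (SE) did not pass the test (edgeR adjusted p = 0.971 and 0.401). The sum of 10 endothelial markers, all detected, was 84.8 to 434 CPM in skin, 117 to 464 in Ivl and 229 to 579 in K5/K14 tumours, and its part in Epas1 was not tested. With library totals only, both values turned negative and passed it, at -0.66 (adjusted p = 0.0131) and -0.60 (adjusted p = 0.00804).

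Glucose enters keratinocytes mainly through GLUT1, the product of Slc2a1 (chr4:119108711-119137983). Its level was 40.8, 70.3, 61.8 and 62.1 CPM in skin. Ivl tumours ran from 189 to 479 with a median of 261 CPM, and K5/K14 tumours from 396 to 909 with a median of 632 CPM. No tumour overlapped skin, while the Ivl and K5/K14 ranges met between 396 and 479 CPM. Slc2a1 was 5.06-fold higher in Ivl tumours (log2 2.34 ± 0.28 SE, edgeR adjusted p = 1.82e-05) and 10.8-fold higher in K5/K14 tumours (3.43 ± 0.29, adjusted p = 6.33e-07).

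Slc2a3, which encodes the neuronal and leukocyte transporter GLUT3, lay between 1.71 and 5.2 CPM in all libraries and passed the test in neither comparison (edgeR adjusted p = 0.577 and 0.177). Per kilobase of exon it was the lowest of the 34 members in each group, at 0.391 ± 0.14 CPM per kb (SD, n = 9) in K5/K14 tumours against 180 ± 43.6 for Slc2a1. Hexokinase traps glucose by phosphorylation. Hk1, the isozyme of most tissues, rose 2.43-fold in Ivl and 2.51-fold in K5/K14 tumours (edgeR adjusted p = 9.39e-05 and 2.48e-05). Hk2, the isozyme of muscle and of many carcinomas, rose 2.61-fold and 3.09-fold (adjusted p = 8.61e-04 and 8.20e-05). For both, every tumour lay above every skin library, with Hk1 at 34.2 to 71.9 CPM in skin and at 92.2 or more in tumours.

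Among the 13 glycolytic enzymes, 9 rose and 2 fell in Ivl tumours, where 20.4% of all genes tested rose and 15.5% fell. In K5/K14 tumours 11 rose and 1 fell, beside 23.2% and 38.9% of all genes. Pgam1 and Eno1, of the payoff phase that runs from triose phosphate to pyruvate, had the largest folds among these enzymes in both comparisons. Pgam1 (phosphoglycerate mutase) measured 37.4, 27.5, 46.6 and 42.6 CPM in skin, 54 to 294 (median 243) in Ivl tumours and 203 to 335 (median 279) in K5/K14 tumours. It rose 5.66-fold and 6.81-fold, and no tumour overlapped skin (edgeR adjusted p = 2.21e-05 and 2.79e-06).

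Eno1 encodes the ubiquitous enolase. It measured 248, 260, 365 and 357 CPM in skin, 497 to 2094 (median 1627) in Ivl tumours and 1648 to 2422 (median 2127) in K5/K14 tumours. The rise was 4.91-fold in Ivl and 6.87-fold in K5/K14 tumours, again without overlap with skin (edgeR adjusted p = 1.90e-05 and 1.26e-06).

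Pkm encodes the muscle-type pyruvate kinases, whose M2 splice form is common in proliferating cells, and gene counts do not separate the forms. Its 4 skin values were 484, 653, 613 and 603 CPM. Ivl tumours held 902 to 3440 (median 2818) and K5/K14 tumours 2465 to 3613 (median 3215) CPM, 4.24-fold and 5.32-fold above skin (edgeR adjusted p = 2.06e-05 and 1.78e-06). All tumours were above all skin libraries. Of the exon bases of Pkm, 15.3% are shared with the gene model Gm49759 on the same strand.

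Pgk1 (phosphoglycerate kinase, chrX:106187100-106203699) measured 127, 161, 158 and 147 CPM in skin. It reached 206 to 775 (median 697) in Ivl and 545 to 1053 (median 808) in K5/K14 tumours, 4.19-fold and 5.36-fold above skin without overlap (edgeR adjusted p = 2.39e-05 and 2.21e-06). Ivl 3 was the low value, at 206 CPM against 617 or more in the other 5 Ivl tumours. Tpi1 (triose phosphate isomerase) rose 2.9-fold and 3.93-fold, and Gpi1 (glucose phosphate isomerase) 2.36-fold and 3.18-fold (edgeR adjusted p from 1.38e-06 to 2.99e-05 for both genes in both comparisons).

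The phosphofructokinases, which commit sugar to glycolysis, moved in opposite directions. Pfkm, the isozyme of muscle (chr15:98092589-98132451), measured 101, 198, 108 and 79.9 CPM in skin. It was 18.1 to 139 with a median of 27.5 CPM in Ivl tumours and 12.4 to 35.2 with a median of 17.8 CPM in K5/K14 tumours. All K5/K14 tumours lay below all skin libraries, whereas Ivl 2, at 139 CPM, lay within the skin range. Its log2 fold change was -1.31 ± 0.48 (SE, edgeR adjusted p = 0.042) for Ivl and -2.61 ± 0.43 (8.00e-05) for K5/K14 tumours. The Ivl call was lost without any 1 of 7 libraries (adjusted p up to 0.16, log2 fold change from -1.97 to -0.97 over all 19 single omissions). Over the 15 libraries, which leave out Ivl 2 and 3 with the highest Pfkm of the Ivl tumours, the value was -2.29 ± 0.36 (adjusted p = 9.16e-05). Of the exon bases of Pfkm, 10.2% are shared with the gene model Gm26513 on the same strand.

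Pfkl, the liver-type isozyme, rose from 33.3, 44.7, 59.5 and 52 CPM in skin to 106 to 280 (median 193) in Ivl and 230 to 337 (median 289) in K5/K14 tumours. The folds were 3.92 and 6.02 and no tumour overlapped skin (edgeR adjusted p = 1.94e-05 and 9.68e-07). Pfkp, the platelet-type isozyme, rose 1.81-fold (adjusted p = 0.0125) and 3.35-fold (adjusted p = 1.37e-05), with the lowest Ivl tumour at 87 CPM against a highest skin value of 121. The call of Pfkp in Ivl tumours was lost without normal skin 1 (adjusted p = 0.0513).

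Among tumours, the highest muscle marker sums went with the highest Pfkm. At lower sums the order was not always the same, and the part of muscle in Pfkm was not tested. The 3 Ivl tumours with the highest muscle sums, Ivl 2 at 8937, Ivl 3 at 3431 and Ivl 6 at 862 CPM, also had the highest Pfkm of their group, at 139, 62.5 and 35.2 CPM, and K14 1, with the highest muscle sum of the K5/K14 tumours at 929, had the highest Pfkm there at 35.2 CPM. Leaving out these 4 tumours, an alternative added after the data were seen, had to deepen the fall of Pfkm, since they held its highest tumour values, and its log2 fold changes were then -2.70 and -2.77. In that fit 24 members were higher and 2 lower in Ivl tumours (21.7% and 30.2% of all genes), and 29 higher and 2 lower in K5/K14 tumours (23.7% and 41.3%).

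Expressed as a share of the 3 isozymes per kb of exon, which does not depend on library scaling, Pfkm made up 71.8% ± 8.14 (SD, n = 4) in skin. Ivl tumours held 25.2% ± 16.1 (n = 6), and 8.72% ± 3.56 remained across the 9 K5/K14 tumours. Pfkl made up 15.2% ± 5.24 (SD, n = 4) in skin and 52.8% ± 14.1 (n = 6) in Ivl tumours, and between 56.9% and 65.1% in the 9 K5/K14 tumours. These shares rest on exon lengths of 3340 bases for Pfkm, 6675 for Pfkl and 13401 for Pfkp. Not divided by length, the means in skin were 122 CPM for Pfkm, 47.3 for Pfkl and 85.4 for Pfkp. In K5/K14 tumours they were 19.9, 285 and 286 CPM, so the larger share of Pfkl than of Pfkp there comes from the lengths. The 4 skin libraries ran from 61.4% to 79% Pfkm, and the highest tumour was Ivl 2 at 47.8%, so skin and tumours did not overlap. The difference of Pfkm passed in all 3 comparisons by two-sided exact permutation tests adjusted over 18 tests: 0.019 for Ivl against skin, 0.0101 for K5/K14 against skin and 0.019 for Ivl against K5/K14. Over the 15 libraries only K5/K14 against skin passed (adjusted exact p = 0.0182). There the smallest exact p that Ivl against skin could reach was 0.0571, and Ivl against K5/K14 gave an adjusted exact p of 0.235.

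**Figure D3:**
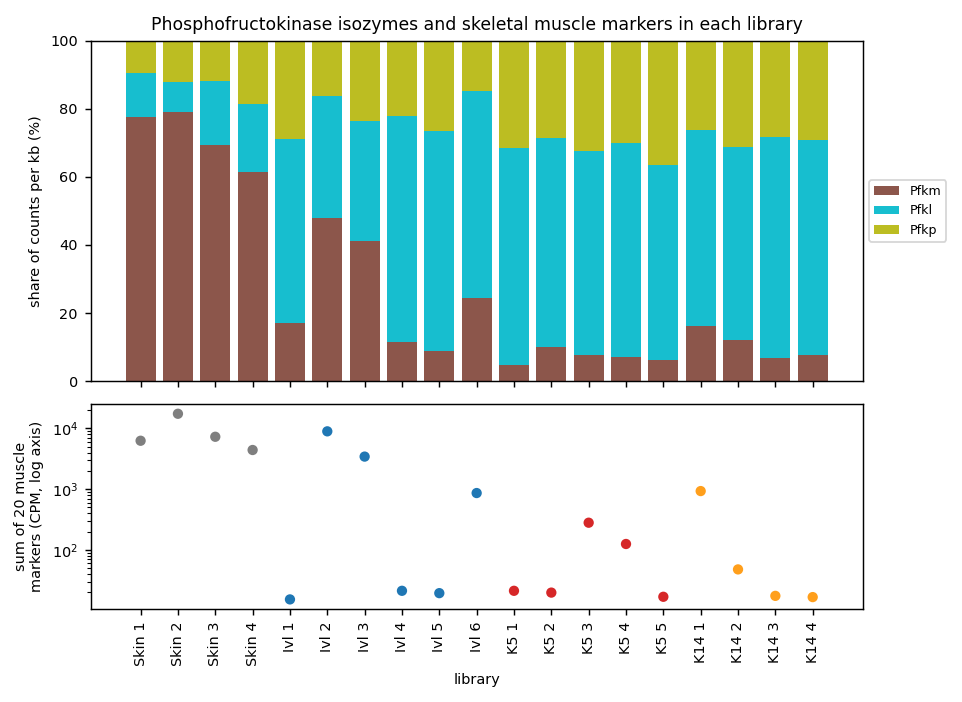
Upper panel: share of counts per kb held by Pfkm, Pfkl and Pfkp in each of the 19 libraries (stacked bars, percent). Lower panel: summed CPM of 20 skeletal muscle markers in the same libraries on a log axis. Pfkm holds 61.4% to 79% in skin and at most 47.8% in a tumour, and the tumours with the tallest Pfkm bars, Ivl 2 and Ivl 3, have the highest muscle sums among tumours.

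The aldolases cleave fructose bisphosphate. Aldoa, the muscle and general form, had the highest level per kb of all members in skin, at 329 ± 120 CPM per kb (SD, n = 4). It measured 637, 1438, 975 and 778 CPM in skin, 884 to 1182 (median 1062) in Ivl and 1027 to 1531 (median 1329) in K5/K14 tumours, and all 3 ranges overlapped. Its log2 fold change was 0.11 ± 0.19 (SE, edgeR adjusted p = 0.628) for Ivl over skin, while K5/K14 over skin gave 0.45 ± 0.18 (adjusted p = 0.0372). That last call was lost over the 15 libraries (adjusted p = 0.0548), and with library totals only the values turned to -0.57 (adjusted p = 0.0174) and -0.37 (adjusted p = 0.0642).

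Aldoc, the brain-type aldolase and a known HIF target, measured 5.83, 5.91, 6.73 and 5.62 CPM in skin. It was 7.61 to 19.6 (median 14.4) in Ivl and 18.1 to 31.5 (median 21.6) in K5/K14 tumours, with every tumour above every skin library. It rose 2.27-fold and 3.9-fold (edgeR adjusted p = 3.37e-04 and 1.90e-06). As a share of both aldolases per kb it went from 0.607% ± 0.183 (SD, n = 4) in skin to 1.61% ± 0.357 (n = 9) in K5/K14 tumours (adjusted exact permutation p = 0.0101), so Aldoa remained nearly all of the total.

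Eno2, the neuronal enolase, was low everywhere, between 1.29 and 5.18 CPM. It fell in Ivl tumours (log2 -0.92 ± 0.32 SE, edgeR adjusted p = 0.0324), a call lost when any of 6 single libraries was left out (adjusted p up to 0.0932), and did not pass in K5/K14 tumours (-0.63 ± 0.30, adjusted p = 0.0706). Over the 15 libraries both passed, with adjusted p = 0.00213 and 0.00446. Its share of both enolases was 1.58% ± 0.482 (SD, n = 4) in skin and 0.148% ± 0.0476 (n = 9) in K5/K14 tumours (adjusted exact permutation p = 0.0101). Gapdh, often used as a reference gene, gave 7.35 to 13.4 CPM in skin, 8.48 to 32.7 in Ivl and 21.2 to 154 in K5/K14 tumours, and passed only in the last (5.52-fold, edgeR adjusted p = 0.00135). Its values are uncertain, since 112 near-identical copies in the table (at least 95% identity over 200 bases) held 66.0% of the counts of the family.

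All 4 genes of pyruvate and lactate handling rose in both kinds of tumour, where 20.4% (Ivl) and 23.2% (K5/K14) of all genes tested rose. Ldha, which reduces pyruvate to lactate (chr7:46841475-46855627), measured 371, 513, 493 and 482 CPM in skin, 1139 to 1875 (median 1594) in Ivl and 1407 to 2015 (median 1849) in K5/K14 tumours. Its rise of 3.25-fold and 3.77-fold had an edgeR adjusted p of 1.82e-05 and 9.68e-07, and the lowest tumour exceeded the highest skin library. Pdk1, which encodes a pyruvate dehydrogenase kinase, rose 1.76-fold (adjusted p = 0.00126) and 2.16-fold (adjusted p = 2.62e-05). With library totals only, Pdk1 passed in neither comparison (log2 0.09, adjusted p = 0.605, and 0.29, adjusted p = 0.0743).

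Of the lactate transporters, Slc16a1 (MCT1) measured 18.7, 47.9, 34.7 and 32.4 CPM in skin and rose by similar amounts, 3.25-fold in Ivl and 3.26-fold in K5/K14 tumours (edgeR adjusted p = 1.37e-04 and 5.26e-05). Slc16a3 (MCT4, the exporter typical of glycolytic cells) measured 12, 20.3, 20.2 and 18.2 CPM in skin, 27.8 to 99.6 (median 64.4) in Ivl and 60.5 to 188 (median 140) in K5/K14 tumours. It rose 3.7-fold and 7.36-fold (adjusted p = 7.28e-04 and 8.94e-06) with no overlap with skin. Its share of both transporters per kb was 31.3% ± 3.73 (SD, n = 4) in skin, 34.6% ± 13.6 among the 6 Ivl tumours and 48.3% ± 11.1 among the 9 of K5/K14. K5/K14 against skin passed over 19 libraries (adjusted exact permutation p = 0.0252) and not over 15 (0.0606).

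Of the 11 other hypoxia-induced genes, 6 rose in Ivl tumours and 10 in K5/K14 tumours, and none fell. Of all genes tested, 20.4% rose and 15.5% fell in Ivl tumours, and 23.2% rose and 38.9% fell in K5/K14 tumours. The largest rise of all members was that of Egln3, one of the prolyl hydroxylases that tag HIF-α and itself a HIF target (chr12:54178981-54203860). It measured 23.2, 23.3, 45.8 and 34.8 CPM in skin, 87.1 to 383 (median 252) in Ivl and 339 to 898 (median 686) in K5/K14 tumours. Every tumour was above skin, and 1 of the 6 Ivl tumours reached the K5/K14 range. The rise was 7.52-fold in Ivl (log2 2.91 ± 0.39 SE, edgeR adjusted p = 2.27e-05) and 19.8-fold in K5/K14 tumours (4.30 ± 0.42, adjusted p = 1.04e-06).

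Egln1, the main hydroxylase at normal oxygen, rose less, 1.79-fold and 2.39-fold (edgeR adjusted p = 3.20e-04 and 2.90e-06). Vegfa, the vascular growth factor, measured 39.4, 65.3, 51.9 and 53.6 CPM in skin, 62.8 to 177 (median 130) in Ivl and 122 to 378 (median 256) in K5/K14 tumours. It rose 2.24-fold and 4.42-fold (adjusted p = 0.0103 and 3.37e-05), with 1 Ivl tumour inside the skin range. Ankrd37, an ankyrin repeat gene strongly induced by HIF-1, rose from at most 2.21 CPM in skin to 2.74 to 11.3 in Ivl and 7.5 to 12.7 CPM in K5/K14 tumours (adjusted p = 6.30e-05 and 3.08e-06). Of its exon bases 22.7% lie opposite Lrp2bp, and whether strand was used in counting is not given in the sources used here.

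Car9 and Car12 encode membrane carbonic anhydrases that handle the acid of glycolysis. Car9 (chr4:43506966-43513729) was low, at 1.41, 1.54, 1.4 and 1.07 CPM in skin and 0.559 to 3.5 (median 2.62) in Ivl tumours. K5 tumours held 12.6, 2.03, 11.7, 12.3 and 12.8 CPM and K14 tumours 3.06, 2.44, 10.8 and 10.7 CPM, all above skin. It passed in K5/K14 tumours (6.42-fold, edgeR adjusted p = 5.83e-04) and not in Ivl tumours (log2 0.84 ± 0.54 SE, adjusted p = 0.204). Car12 measured 55.7 to 118 CPM in skin and at least 139 in every tumour, a rise of 3.58-fold and 3.79-fold (adjusted p = 2.99e-05 and 6.25e-06).

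Bnip3, which promotes removal of mitochondria, rose 3-fold in Ivl (edgeR adjusted p = 0.0124) and 6.53-fold in K5/K14 tumours (adjusted p = 1.25e-04). Adm (adrenomedullin, a vasodilator peptide) measured 1.91, 1.99, 3.74 and 5.57 CPM in skin, 3.2 to 13.1 (median 7.63) in Ivl and 5.6 to 30 (median 19.7) in K5/K14 tumours. It passed only in K5/K14 tumours (5.01-fold, adjusted p = 9.64e-04, against 0.0604 in Ivl). Ndrg1, a stress-responsive differentiation gene, likewise passed only in K5/K14 tumours (3.84-fold, adjusted p = 3.22e-04, against 0.0897 in Ivl). Without the 4 tumours of highest muscle markers it passed in Ivl tumours too (adjusted p = 0.022).

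P4ha1 and P4ha2 encode the catalytic subunits of collagen prolyl hydroxylase. P4ha2 rose 2.49-fold in K5/K14 tumours (edgeR adjusted p = 7.17e-04) and had a log2 fold change of 0.61 ± 0.29 (SE, adjusted p = 0.0977) in Ivl tumours. P4ha1 measured 19, 27, 37.7 and 40.4 CPM in skin, overlapped both tumour groups and passed in neither (adjusted p = 0.494 and 0.131).

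Counted without a model, the tumour values of 20 members lay wholly above skin in Ivl tumours, where 13.2% of all genes did so, and none lay wholly below, where 9.01% did. In K5/K14 tumours 28 members lay wholly above, against 16.7% of all genes, and 1, Pfkm, wholly below, against 24.6%. The skin libraries were themselves uneven, and normal skin 1 was the lowest of the 4 for 26 of the 34 members. The share of all genes for which it was the lowest was not counted.

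**Figure D4:**
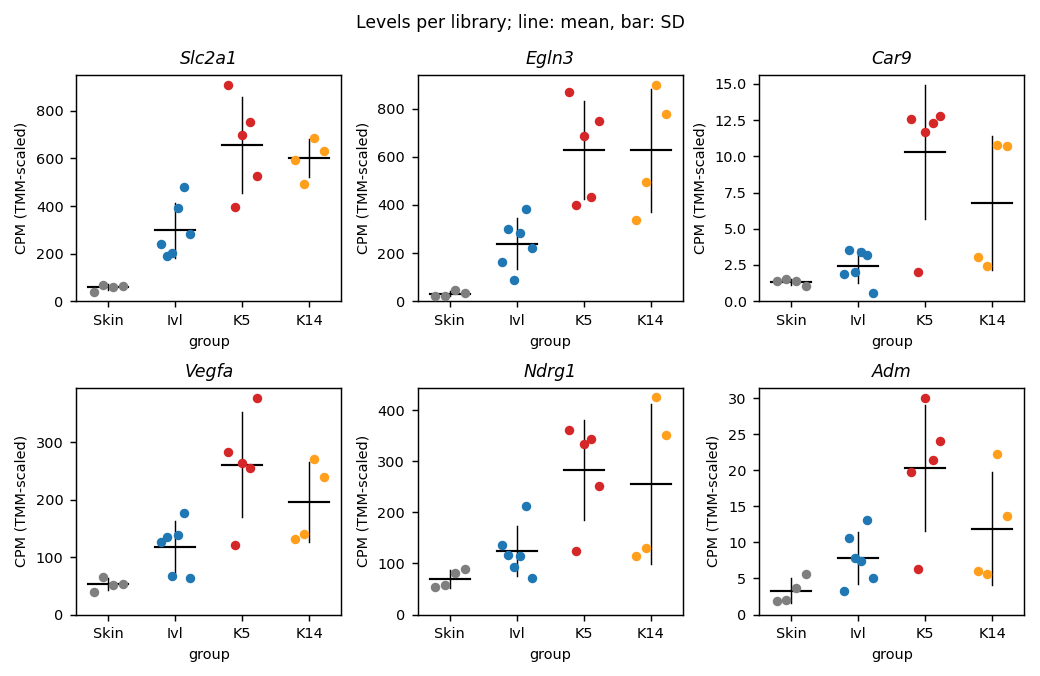
CPM of Slc2a1, Egln3, Car9, Vegfa, Ndrg1 and Adm in each library (points) by group, with the mean (horizontal line) and SD (vertical line). Every K5 and K14 tumour lies above skin for all 6 genes, and within both groups the values of Car9 fall into a low and a high set.

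Ivl tumours were then compared with K5/K14 tumours directly. Over 19 libraries 5 members were lower in Ivl tumours and none higher, where 0.593% of all genes tested were lower and 1.77% higher. The median log2 fold change was -0.43 for members and 0.11 for all genes. The 5 were Slc2a1 (-1.09 ± 0.22 SE, edgeR adjusted p = 0.0212), Egln3 (-1.39 ± 0.30, adjusted p = 0.0283), Pfkp (-0.89 ± 0.20, adjusted p = 0.0321), Aldoc (-0.78 ± 0.18, adjusted p = 0.0321) and Car9 (-1.84 ± 0.46, adjusted p = 0.0393). These are also the differences between the rises over skin in both kinds of tumour. For each of them the Ivl and K5/K14 values overlapped. DESeq2 called 15 members lower and 1 higher, and also called more of all genes, 2.87% lower and 5.22% higher. The sum of 10 fibroblast markers, all detected, was 1588 to 10985 CPM (median 2307) in Ivl and 3967 to 15318 CPM (median 8133) in K5/K14 tumours, with 4 of the 6 Ivl tumours below every K5/K14 tumour. The neutrophil sums given above had medians of 1952 and 3695 CPM, and the part of either in the difference was not tested.

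None of these 5 calls held over the 15 libraries, where 0.197% of all genes were lower and 0.213% higher. Their log2 fold changes there were -0.64 for Slc2a1, -1.02 for Egln3, -0.84 for Pfkp, -0.75 for Aldoc and -1.78 for Car9. Their edgeR adjusted p ran from 0.103 to 0.313. By contrast, the share of Slc2a1 in the sum of Slc2a1 and Slc2a3 per kb passed between these tumours with both sets of libraries. Over 19 libraries its mean was 99.4% (SD 0.367) for the 6 Ivl tumours, against 99.8% (SD 0.059) for the 9 others. The adjusted exact permutation p was 0.00719 over 19 libraries and 0.0436 over 15. Slc2a1 was thus nearly all of that sum in either kind of tumour. The set of 4 holds 3 of the 6 Ivl tumours and only 1 of the 9 K5/K14 tumours, and its levels are tied to a mean that includes skin, so genotype and that adjustment cannot be told apart in the 19-library values. The study also reported later onset and slower growth of Ivl tumours and used another inducing drug for them. These, and any difference in age at collection, cannot be told apart from genotype over 19 or 15 libraries. None of the 5 calls held without the 4 tumours of highest muscle markers, where 0.501% of all genes were lower and 0.489% higher (edgeR adjusted p from 0.0613 to 0.155). Hif1a (-0.08 ± 0.19), Hk1 (-0.05 ± 0.16), Slc16a1 (-0.01 ± 0.22) and Car12 (-0.08 ± 0.20) had the smallest differences, with edgeR adjusted p from 0.858 to 1. Among the 11 other hypoxia-induced genes the median log2 fold change was -0.98 over 19 libraries and -0.84 over 15, and Pfkm, at 1.30 ± 0.40 (adjusted p = 0.0799) and 0.25 ± 0.29 (adjusted p = 0.821), had the opposite sign.

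**Figure D5:**
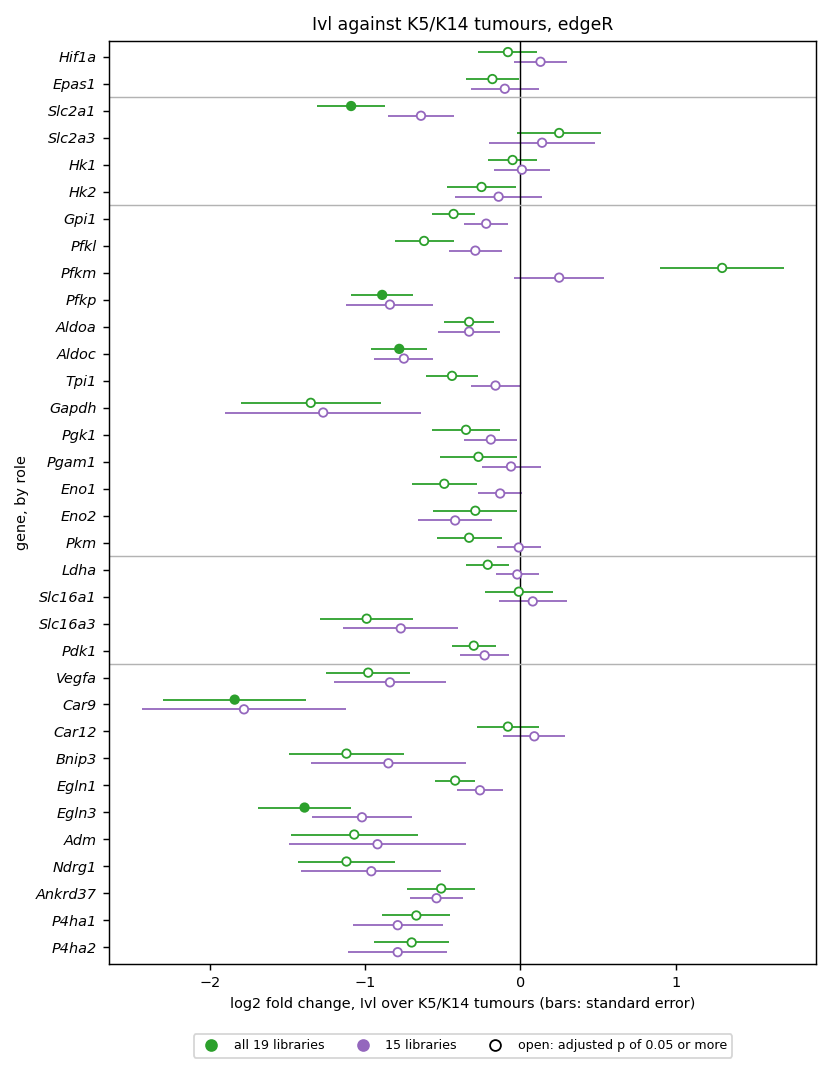
Log2 fold change of each member in Ivl over K5/K14 tumours (x axis) with its standard error, over all 19 libraries (green) and over 15 (purple), with filled points where the edgeR adjusted p was under 0.05. The 5 filled points, from Slc2a1 to Egln3, lie left of 0, and no purple point is filled.

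K5 and K14 tumours did not differ in any member by edgeR or DESeq2, and no member had an unadjusted p under 0.05. Of all genes tested, edgeR called 0% over 19 and 0.0532% over 15 libraries, and DESeq2 0.889%. The largest difference by adjusted p was that of P4ha1 (log2 0.53 ± 0.26 SE, K5 over K14, edgeR adjusted p = 0.826). Variation lay within each genotype. K5 2 was the lowest K5 tumour for 20 of the 34 members and for 9 of the 11 other hypoxia-induced genes. K14 1 and 2 were both below K14 3 and 4 for 25 members and for 8 of those 11. For Adm the K5 tumours held 19.7, 6.3, 30, 21.4 and 24 CPM and the K14 tumours 6.05, 5.6, 22.3 and 13.6 CPM. For Ndrg1 they held 361, 125, 333, 344 and 252 CPM and 115, 130, 425 and 352 CPM. Among Ivl tumours, Ivl 5 was the highest for 20 members and Ivl 3 the lowest for 14. For none of these orders was the share of all genes counted, so they are not read as particular to the members.

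Car9 is the member most used as a single marker of hypoxia, so its relation to 11 others was asked across tumours. The tumours fell into 9 with Car9 of 0.559 to 3.5 CPM (all 6 Ivl tumours, K5 2, K14 1 and K14 2) and 6 with 10.7 to 12.8 CPM, so no correlation over all 15 was computed. Among the 9, Vegfa had the largest Pearson r (0.778, exact permutation p = 0.00754, adjusted over 11 partners 0.0829; Spearman rho 0.75, adjusted p = 0.14). Without the 2 tumours farthest from the median of Car9 it was 0.579. None of the 11 passed the adjusted exact permutation test among the 9, whose range of Car9 is limited by the way they were set apart. The 6 span too little Car9 for a relation to be read.

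Other genes of the same pathways, from lists chosen for this report, are given by their counts. Of 28 tested other glycolysis and pyruvate genes, 4 were higher and 4 lower in Ivl tumours, where 20.4% and 15.5% of all genes were. In K5/K14 tumours 5 were higher and 16 lower, beside 23.2% and 38.9% of all genes, and the medians of the log2 fold changes were -0.97 and -1.08. Over the 15 libraries the counts were 5 and 13, beside 22.2% and 32.7% of all genes, and 5 and 17, beside 23.9% and 42.3%. Pfkfb4, which makes the activator of phosphofructokinase, rose from a mean of 16.8 CPM in skin to 51.5 in Ivl and 56.6 in K5/K14 tumours (edgeR adjusted p = 1.82e-05 and 1.54e-06). Pgam2, the phosphoglycerate mutase of muscle, had means of 40.7, 14.8 and 4.46 CPM and fell in K5/K14 tumours (log2 -3.19 ± 0.52 SE, adjusted p = 6.24e-05), with -1.46 ± 0.57 in Ivl tumours (adjusted p = 0.0536). The muscle marker sums given above fell in the same direction.

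Of 10 oxygen-sensing genes and HIF partners, 1 was higher and none lower in Ivl tumours (1 and 2 over the 15 libraries), and 3 were higher and 3 lower in K5/K14 tumours, counts near those shares of all genes. Siah2, a ubiquitin ligase that acts on prolyl hydroxylases, rose in both (0.94 ± 0.17 and 1.03 ± 0.16 on the log2 scale, edgeR adjusted p = 1.97e-04 and 2.91e-05). Hif3a, whose product can restrain HIF, was at 0.783 CPM in skin and fell in K5/K14 tumours to 0.115 (adjusted p = 0.0195). Of 25 other hypoxia-induced genes outside the 34, 12 were higher and none lower in Ivl tumours, beside 20.4% and 15.5% of all genes. Over the 15 libraries 12 were higher and 4 lower in Ivl tumours, beside 22.2% and 32.7%. In K5/K14 tumours 13 were higher and 3 lower, beside 23.2% and 38.9%. Fam162a and Higd1a, both mitochondrial proteins induced by HIF-1, rose in both. Mean levels of Fam162a were 49.9 CPM in skin, 398 in Ivl and 658 in K5/K14 tumours, and those of Higd1a 28.8, 160 and 254 CPM (edgeR adjusted p from 9.68e-07 to 1.82e-05).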

How the data were processed

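Per the labels and the study's methods, the authors checked reads with FastQC 0.11.8, trimmed them with Trim Galore, aligned them with HISAT2 2.1.0 to GRCm38, counted genes with featureCounts (Subread 1.6.3) and adjusted the table for batch with ComBat-seq, so the deposited values are estimated counts, whole numbers as deposited. The design had assumed plain counts, and the same test was kept. Genes reaching 5 counts in any 1 library were tested with edgeR 4.0.16 in R 4.3.3 (quasi-likelihood F test, TMM scaling, two-sided, Benjamini-Hochberg over all genes), all 19 libraries in 1 fit. DESeq2 1.42.0, as used in the study, was an alternative. CPM are TMM-scaled, except in the check that found the set of 4, which used library totals. Gene positions (34694 of 34807 identifiers matched) and the exon lengths behind CPM per kb are from GENCODE on GRCm38, and log2 CPM carry a prior count of 2. Shares of isozymes were tested by exact permutation. Precision was limited by the number of libraries, of 45715309 to 72609771 counts each. All 37 library pairs within groups differed by far more than counting error (lowest ratio of chi-square to its degrees of freedom 26.3). In simulated data for K5/K14 against skin (30175 genes), 88% of 100 genes with a log2 change of 2 and 42% of 100 with 1 were recovered. All members were named, and of other lists up to 3 genes per direction with the smallest p. Members and lists were chosen with earlier results of these data known.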

Additional observations from a re-analysis of the deposited data

Results flagged for a closer look

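In a check for single libraries far from the rest of their group, 9 of 160 groups of values were marked, and chance marks about 1 in 20. Ivl 3 accounted for 3 of them, with Pgk1 at 206 CPM (others 617 to 775), Eno2 at 4.23 CPM (others 1.29 to 2.25) and the Eno2 share of both enolases at 0.963% (others 0.0933% to 0.171%). Pfkm was at 139 CPM in Ivl 2 (others 18.1 to 62.5). Car9 was at 2.03 CPM in K5 2 (others 11.7 to 12.8) and Slc2a3 at 4.59 CPM in K5 4 (others 1.95 to 2.65). Gapdh was at 109 CPM in K14 3 (others 21.2 to 30.5), P4ha1 at 23.4 CPM in K14 2 (others 36.5 to 39) and Hk1 at 34.2 CPM in normal skin 1 (others 65.6 to 71.9).

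The rise over skin differed between Ivl and K5/K14 tumours, by the edgeR test of the difference over 19 libraries, for Slc2a1 (log2 -1.09), Pfkp (-0.89), Aldoc (-0.78), Car9 (-1.84) and Egln3 (-1.39), all smaller in Ivl tumours. None of the 5 passed over the 15 libraries.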

How the results depend on the processing

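Over 10 alternatives, the counts of members called in either direction ran from 23 to 26 of 34 for Ivl against skin (25 over 19 libraries). They ran from 29 to 31 for K5/K14 against skin (30), and none was called for K5 against K14 in any. These sums hide a shift with library totals only. There 17 were higher and 6 lower in Ivl tumours, against 23 and 2 with TMM scaling. In K5/K14 tumours 26 were higher and 4 lower, against 29 and 1. The 5 calls of Ivl against K5/K14 became 16 with DESeq2 (15 lower, 1 higher), where 2.87% of all genes were lower and 5.22% higher. With the set of 4 as a covariate they became 3, where 266 of all 32031 genes were lower and 183 higher. They became 0 over the 15 libraries, with the replicate block, with both together and without the 4 tumours of highest muscle markers. Leaving out single libraries gave 23 to 26, 29 to 31 and 1 (without K5 1, K5 3 or K14 4) to 12 (without Ivl 5) in the same order, and 2 to 3 without Ivl 2, Ivl 3, Ivl 6, K5 4, K5 5 or K14 3, and 8 without K14 1. Library totals only, the 15-library fit with the block and the muscle alternative were added after the data were seen. With totals only, Epas1 turned to -0.66 in Ivl and -0.60 in K5/K14 tumours, and Aldoa to -0.57 and -0.37. In Ivl tumours Pfkp, Aldoc, Pdk1, Vegfa, Bnip3 and Egln1 then lost their call and Slc2a3 and P4ha1 were called lower, and in K5/K14 tumours Pdk1 and P4ha2 lost theirs and Slc2a3 and Eno2 were called lower. Another 52 values changed sign where neither fit called them. Pfkm in Ivl tumours was not called without any 1 of 7 libraries (Ivl 1, 4, 5, 6 and normal skin 1, 2, 3, adjusted p up to 0.16), nor Aldoa in K5/K14 tumours without any 1 of 8 (up to 0.167). Of 18 isozyme shares, 11 passed over 19 libraries, 9 to 12 with 1 library left out, and 5 over 15.

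The replicate numbers were not seen to pair libraries. Samples of the same number in different groups had a median correlation of deviations of -0.00643 (-0.503 to 0.426, 25 pairs). With the replicate block, 25 and 29 members were called against skin and 0 for Ivl against K5/K14.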
